A study of Mus musculus with 14 samples.

Results

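The UDP-glucuronosyltransferases described here are 10 mouse genes of the Ugt1a and Ugt2 families: Ugt1a1, Ugt1a6a, Ugt2a3, Ugt2b1, Ugt2b5, Ugt2b34, Ugt2b35, Ugt2b36, Ugt2b37 and Ugt2b38. Their probes were found by the gene name in the scanner files or by the current RefSeq symbols of the accessions listed on each probe. Each probe was kept apart. Of the 10 genes, 8 had a matched probe, and these 8 genes had 10 probes among the 41174 probes of the array, of which 22184 were matched to 16502 genes. Ugt1a1 and Ugt2b37 had 2 probes each, and no probe was matched to Ugt1a6a or Ugt2b36, which were not analysed here. The Ugt1a1 probe A_51_P308362 had no single matched symbol. It was assigned to Ugt1a1 because its accession list names Ugt1a1, Ugt1a5 and Ugt1a6b, of which only Ugt1a1 is a member. All 10 probes were well above background in the animal's channel on all 14 arrays, none was saturated there, and all 10 were tested.

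UDP-glucuronosyltransferases sit in the membrane of the endoplasmic reticulum and transfer glucuronic acid from UDP-glucuronic acid to bilirubin, steroids, fatty acids, drugs and plant polyphenols, resveratrol among them. The glucuronides are water-soluble and leave the hepatocyte for bile or blood. Ugt1a genes are spliced from alternative first exons to a shared set of last exons, whereas each Ugt2b gene has its own exons and the Ugt2b genes lie side by side with high sequence similarity. In the RefSeq gene table of GRCm38.p6 the Ugt2 genes of the list lie on chromosome 5 in the order Ugt2b34, Ugt2b1, Ugt2b35, Ugt2b36, Ugt2b5, Ugt2b37, Ugt2a3 and Ugt2b38, and both Ugt1a genes lie on chromosome 1.

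Liver RNA came from male C57BL/6 mice of 1 year of age with free access to food, 1 animal per array. The standard-diet group (n = 5) ate AIN-93G. The high-calorie group (n = 5) ate AIN-93G changed so that fat gave 60% of the calories, and the resveratrol group (n = 4) ate that high-calorie diet with 0.04% resveratrol. The animal's RNA carried the Cy3 dye. RNA pooled from 5 livers of mice on the standard diet was the Cy5 partner on each array, with no dye swap. Each value is therefore the log2 ratio of animal to pool, and 0 means a level equal to the pool's. The ratio has a probe-specific dye bias, so levels are compared between diets within a probe and never between probes. In whole liver, fewer hepatocytes and less of an RNA per hepatocyte cannot be told apart.

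Between 77.8% and 92.4% of the probes of an array were well above background in Cy3, and the median net Cy3 signal ran from 48.6 to 85.6 intensity units on standard-diet arrays, from 57.7 to 114 on high-calorie arrays and from 65.9 to 100.2 on resveratrol arrays. Image extraction was spread over 2 days, and all 4 resveratrol arrays were extracted on day 1 with standard-diet replicates 1, 3 and 4 and high-calorie replicates 1 and 4. All 12 hepatocyte marker probes, such as that of transthyretin, were well above background on every array, and 0 rose and 2 fell (Apoa1 and Serpina1b) from standard to high-calorie diet, with a list median of -0.37. Of 8 tested stellate cell marker probes, 4 rose (Col3a1 by 0.75 ± 0.10, SE), and the summed net Cy3 signal of the 9 probes of that list ran from 1770 to 3526 intensity units on standard-diet arrays, 2469 to 4985 on high-calorie arrays and 2393 to 3351 on resveratrol arrays. Of 8 tested kidney and gut marker probes, 2 rose, both of the intestinal fatty acid-binding protein Fabp2, and the sums of the list were 2229 to 6196, 6455 to 16308 and 1783 to 6522 in that order. These sums were not scaled for array brightness. Those of the hepatocyte list were 91083 to 200529, 141263 to 229629 and 152548 to 182634 in the same order. The part of these marker shifts in the results below was not tested.

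Promoter sequence is shown for the genes that the results turn on, from RefSeq on GRCm38.p6, as the 250 bases before the annotated start, read 5′ to 3′ on the gene's strand. All 10 genes had an entry. Ugt1a1 and Ugt2b35 were the genes with an assigned probe whose ratio rose with the high-calorie diet. Ugt2b5 and Ugt2b37 gave the pair of probes that moved most alike, and Ugt2b34 moved apart from the rest. Capitals mark the letters GTTAAT on either strand, the half-site of the liver factor HNF1, in Ugt1a1, and in Ugt2b5 and Ugt2b37 a run of 62 bases that both share with Ugt2b38.
Ugt1a1, chr1:88211709-88211958, plus strand: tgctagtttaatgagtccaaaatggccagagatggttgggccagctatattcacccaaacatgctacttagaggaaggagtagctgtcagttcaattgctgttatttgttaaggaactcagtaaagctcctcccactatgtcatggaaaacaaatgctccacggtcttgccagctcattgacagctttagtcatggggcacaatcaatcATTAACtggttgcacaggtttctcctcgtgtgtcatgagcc
Ugt2b35, chr5:87000610-87000859, plus strand: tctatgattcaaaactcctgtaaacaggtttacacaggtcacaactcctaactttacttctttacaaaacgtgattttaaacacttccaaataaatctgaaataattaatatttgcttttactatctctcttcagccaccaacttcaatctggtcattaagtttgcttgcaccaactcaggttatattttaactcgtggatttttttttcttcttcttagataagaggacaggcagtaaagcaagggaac
Ugt2b5, chr5:87140341-87140590, minus strand: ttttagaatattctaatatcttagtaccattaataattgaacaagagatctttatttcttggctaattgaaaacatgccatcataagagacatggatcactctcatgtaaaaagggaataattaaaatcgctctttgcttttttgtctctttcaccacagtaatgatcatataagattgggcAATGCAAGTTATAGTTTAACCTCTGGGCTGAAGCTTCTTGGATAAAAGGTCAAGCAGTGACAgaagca
Ugt2b37, chr5:87254789-87255038, minus strand: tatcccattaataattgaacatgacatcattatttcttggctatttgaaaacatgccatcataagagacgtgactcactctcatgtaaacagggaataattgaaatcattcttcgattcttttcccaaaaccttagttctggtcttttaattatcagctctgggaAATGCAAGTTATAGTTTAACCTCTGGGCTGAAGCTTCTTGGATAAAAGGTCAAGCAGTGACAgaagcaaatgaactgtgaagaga
Ugt2b34, chr5:86906938-86907187, minus strand: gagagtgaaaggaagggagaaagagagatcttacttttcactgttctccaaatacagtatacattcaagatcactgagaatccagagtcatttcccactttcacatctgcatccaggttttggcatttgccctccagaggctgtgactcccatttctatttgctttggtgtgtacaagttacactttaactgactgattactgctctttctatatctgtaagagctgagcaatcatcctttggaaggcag

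The shared run was found whole in 3 of 32851 promoter windows of this length, those of Ugt2b5, Ugt2b37 and Ugt2b38. It was taken as the longest stretch common to these 3 windows, so its presence in them was fixed by that choice. The end of the run, from GATAAAAGG on, was also in the Ugt2b36 window. The whole run ended 7 bases before the start in Ugt2b5, 10 before it in Ugt2b38 and 24 before it in Ugt2b37. Over a global alignment of the whole window, identity was 85.6% between Ugt2b37 and Ugt2b38, 82.3% between Ugt2b38 and Ugt2b5 and 73% between Ugt2b37 and Ugt2b5, while the other pairs of the 10 genes ran from 41.2% to 61.1%. GTTAAT, searched on both strands, was in the windows of Ugt1a1, Ugt1a6a and Ugt2a3 (3 of 10) and in 6.43% of all windows. The dioxin response core GCGTG (28.2% of all windows), the antioxidant response core TGACNNNGC (10.2%) and the TATA box TATAAA (12.4%), each on both strands, were in 0 of the 10. These matches describe the letters only.

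The first comparison asks what the high-calorie diet did. The ratios of probes assigned to 2 genes rose. Those of the Ugt1a1 probes rose by 1.36-fold (A_51_P308362) and 1.16-fold (A_52_P874080), and that of the Ugt2b35 probe by 1.41-fold. A rise of Ugt1a1 itself is not settled by these probes. A_51_P308362 may report other Ugt1a transcripts, and A_52_P874080, which names Ugt1a1 alone, differed by 0.01 ± 0.09 (SE) in Cy3 alone. Probes of Ugt2b34 and Ugt2b38 had differences of similar size, with a wide spread, and did not pass, and the probes of Ugt2a3 and Ugt2b1 lay near 0. In all, 3 of the 10 probes were called at an adjusted p under 0.05 (limma over all probes, Benjamini-Hochberg), 3 higher and 0 lower, where 9.04% of the 37138 tested probes were called, 5.3% as higher. Of the 10 differences, 9 were above 0, and the median of the 10 was 0.26 against -0.00077 for all probes. Most of the probes move together, so these signs are not separate, and without standard-diet replicate 2 the Ugt2a3 difference was -0.12.

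Ugt1a1 makes the enzyme that conjugates bilirubin. Its brighter probe (A_51_P308362) carries an accession list that names Ugt1a1, Ugt1a5 and Ugt1a6b, so it may report several Ugt1a transcripts. The log2 ratios of this probe were -0.64, -0.83, -0.87, -0.67 and -0.42 in standard-diet mice, -0.23, -0.35, -0.17, -0.21 and -0.24 in high-calorie mice, and -0.31, -0.36, -1.04 and -0.43 in resveratrol mice. Every high-calorie mouse lay above every standard-diet mouse, as 5.2% of all probes showed, and the resveratrol mice overlapped both groups, with replicate 3 below all other mice. The high-calorie mean of -0.24 ± 0.07 (SD, n = 5) was 0.44 ± 0.12 (SE) above the standard-diet mean of -0.68 ± 0.18 (SD, n = 5), with a 95% interval of 0.19 to 0.70 and an adjusted p of 0.036 in limma.

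The dimmer Ugt1a1 probe (A_52_P874080), whose accession list names Ugt1a1 alone, read 0.25, 0.08, 0.26, 0.24 and 0.38 in standard-diet mice, 0.32, 0.48, 0.50, 0.43 and 0.57 in high-calorie mice, and 0.13, 0.26, 0.10 and 0.15 in resveratrol mice. The high-calorie mice overlapped the standard-diet mice at 1 animal on each side and lay above all resveratrol mice. The diet difference was 0.22 ± 0.06 (SE), with an adjusted p of 0.032 in limma. Net Cy3 signals of this probe were only 62.6 to 212.1 intensity units. In the Cy3 channel alone its difference was 0.01 ± 0.09 (SE), while the Cy5 channel, which held the same pool on every array, differed by -0.22 ± 0.14 (SE). The rise of the ratio was thus not seen in the animal's own channel.

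Ugt2b35 is a member of the Ugt2b family, whose enzymes conjugate steroids and many drugs. Its probe (A_51_P163578) read -0.30, -0.61, -0.19, 0.03 and 0.19 in standard-diet mice, 0.41, 0.31, 0.20, 0.28 and 0.40 in high-calorie mice, and 0.03, -0.01, -0.49 and -0.05 in resveratrol mice. The high-calorie mice lay above all mice of the other groups, by a narrow margin over standard-diet replicate 5. The diet difference was 0.50 ± 0.13 (SE), with a 95% interval of 0.21 to 0.78 and an adjusted p of 0.0323 in limma. In Cy3 alone the differences were 0.63 ± 0.14 (SE) for Ugt2b35 and 0.59 ± 0.14 (SE) for the brighter Ugt1a1 probe, with adjusted p of 0.0262 and 0.0281 in limma over all probes, and in the Cy5 pool channel they were 0.23 ± 0.11 and -0.05 ± 0.07 (SE).

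**Figure D1:**
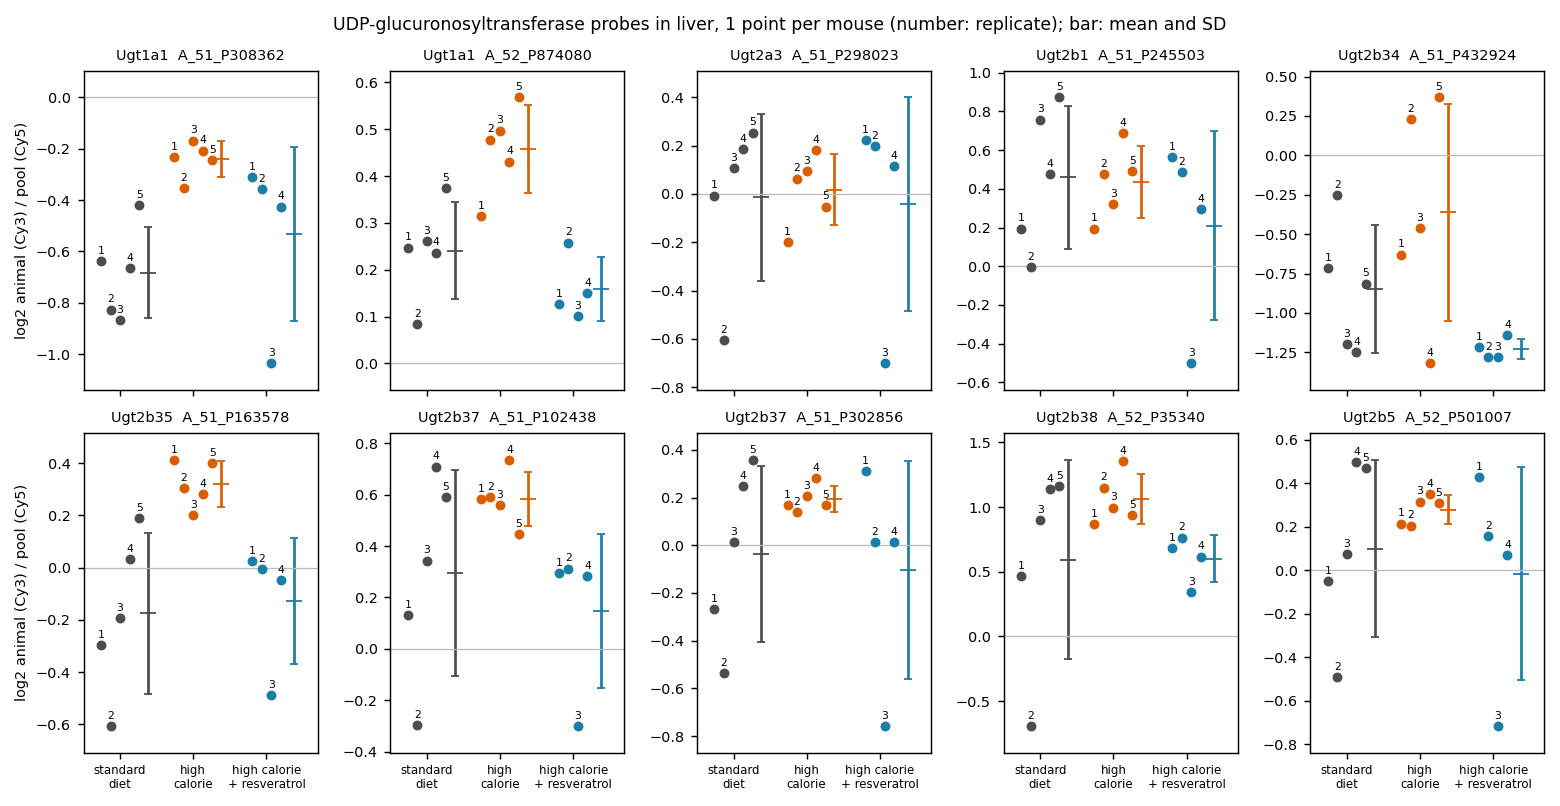
Log2 ratio of animal to reference pool (y axis) for each of the 10 probes, 1 point per mouse with its replicate number, by diet (x axis); horizontal ticks and bars give the mean and SD, and each panel has its own y scale. High-calorie mice lie above all standard-diet mice for the brighter Ugt1a1 probe and for Ugt2b35, and standard-diet replicate 2 and resveratrol replicate 3 lie low in most panels.

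The 3 probes were near the threshold. Leaving out 1 of the 10 arrays of this comparison left between 0 and 3 of them called: 0 without standard-diet replicate 1, 2 or 3 or high-calorie replicate 2, 4 or 5, 1 without standard-diet replicate 4 or high-calorie replicate 1 or 3, and 3 without standard-diet replicate 5. With an array left out the differences themselves moved less, from 0.40 to 0.51 for the brighter Ugt1a1 probe, from 0.18 to 0.25 for the dimmer one and from 0.39 to 0.59 for Ugt2b35. Over all settings in log2 units they moved more, from 0.31 to 0.88, from 0.006 to 0.35 and from 0.34 to 0.67 in that order. With array brightness as a covariate the 3 differences were 0.38, 0.16 and 0.35, with adjusted p of 0.166, 0.166 and 0.167. Within extraction day 1 they were 0.50, 0.12 and 0.50 (adjusted p of 0.0241, 0.282 and 0.0494 in limma), and within day 2 they were 0.37, 0.28 and 0.51 (0.426, 0.409 and 0.488). With the day as a block the adjusted p in limma was 0.054 for the brighter Ugt1a1 probe, which ended its call, 0.0493 for the dimmer one and 0.043 for Ugt2b35. The slide numbers fall into 2 series, parted at their widest gap. The 5 standard-diet arrays were all on slides of series 2, as were high-calorie replicates 2, 3 and 5 and resveratrol replicate 2, and the other arrays were on series 1. With the slide series as a block the brighter Ugt1a1 probe and Ugt2b35 were no longer called, at 0.47 and 0.51 with adjusted p of 0.0606 and 0.0628 in limma, while the dimmer Ugt1a1 probe was at 0.27 with 0.0135. Within series 2 the differences were 0.43 for the brighter Ugt1a1 probe, 0.27 for the dimmer one and 0.48 for Ugt2b35, with adjusted p of 0.0621, 0.0621 and 0.141, and 0 of them were called.

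The remaining Ugt2 probes did not pass. The Ugt2b38 probe (A_52_P35340), whose accession list names Ugt2b5, Ugt2b37 and Ugt2b38, read 0.47, -0.69, 0.90, 1.14 and 1.16 in standard-diet mice, 0.87, 1.15, 0.99, 1.36 and 0.94 in high-calorie mice, and 0.68, 0.76, 0.34 and 0.62 in resveratrol mice. Its diet difference of 0.47 ± 0.27 (SE; adjusted p of 0.287 in limma) was 0.15 without standard-diet replicate 2, the single mouse below 0. The Ugt2b37 probes differed by 0.29 ± 0.17 (A_51_P102438) and 0.23 ± 0.18 (A_51_P302856), with adjusted p of 0.279 and 0.449, and the Ugt2b5 probe by 0.18 ± 0.20, with an adjusted p of 0.6. For Ugt2a3 the difference was 0.03 with a 95% interval of -0.36 to 0.42, and for Ugt2b1 it was -0.02 with an interval of -0.45 to 0.40, so changes of that size in either direction are within the error.

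**Figure D2:**
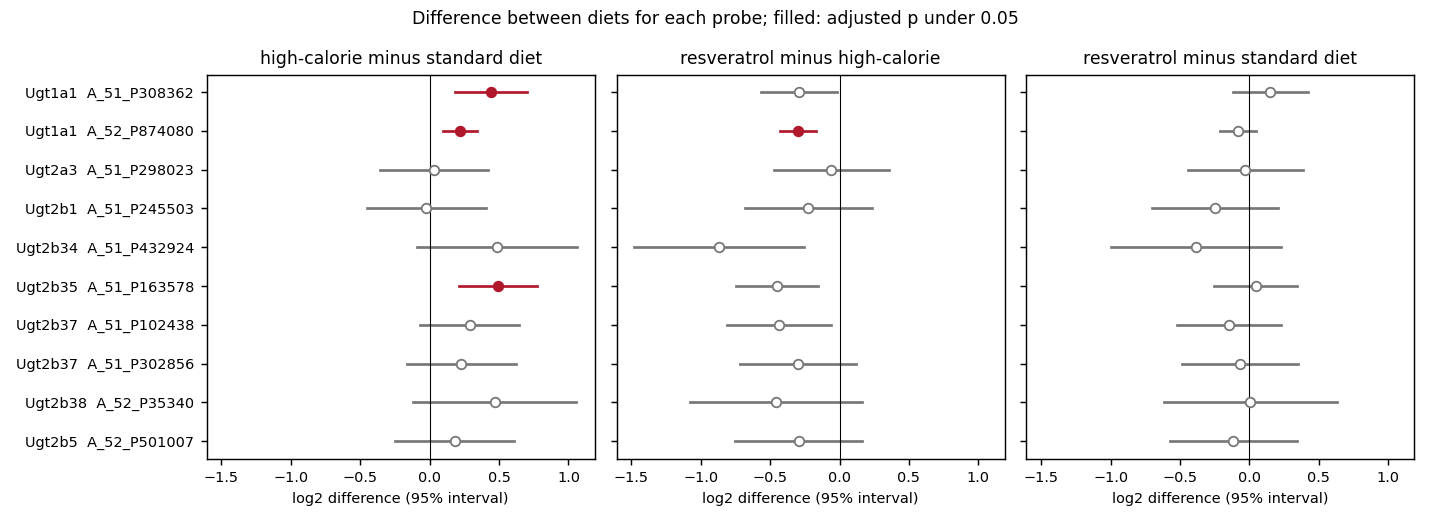
Log2 difference between diets (x axis) for each of the 10 probes (y axis), with 95% intervals from limma; filled red points have an adjusted p under 0.05. The 3 probes called in the first panel are both Ugt1a1 probes and Ugt2b35, the second panel has 1 called probe, and the third has none.

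The second comparison asks what resveratrol did on top of the high-calorie diet. Only 1 of the 10 probes was called, the dimmer Ugt1a1 probe, which fell by 0.30 ± 0.06 (SE; 1.23-fold; adjusted p of 0.0162 in limma), where 4.91% of all probes were called and 2.14% were called lower. All 10 differences were below 0, with a median of -0.30 against -0.0081 for all probes. Most of the probes move together, so the 10 signs are not separate. Without resveratrol replicate 3 the differences of Ugt2a3 and Ugt2b1 were 0.16 and 0.013. For 4 probes (the dimmer Ugt1a1 probe, Ugt2b35, Ugt2b38 and the Ugt2b37 probe A_51_P102438) every resveratrol mouse lay below every high-calorie mouse, a pattern that 6.21% of all probes showed. This comparison shares the high-calorie arrays with the first one, so opposite signs in both are not independent of each other.

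For the dimmer Ugt1a1 probe the difference was -0.10 ± 0.10 (SE) in Cy3 alone and 0.20 ± 0.15 (SE) in the Cy5 pool channel. It was -0.21 within extraction day 1, with an adjusted p of 0.304, and -0.29 without resveratrol replicate 1, with an adjusted p of 0.0621. The brighter Ugt1a1 probe differed by -0.29 ± 0.13 (SE; adjusted p of 0.202 in limma), and by -0.12 without resveratrol replicate 3. The Ugt2b35 difference was -0.45 ± 0.14 (SE; adjusted p of 0.0768), and -0.33 without that mouse. The Ugt2b37 probes differed by -0.44 ± 0.18 and -0.30 ± 0.20, the Ugt2b38 probe by -0.46 ± 0.29, the Ugt2b5 probe by -0.29 ± 0.21, the Ugt2b1 probe by -0.22 ± 0.21 and the Ugt2a3 probe by -0.06 ± 0.19 (all SE), none of them called.

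Ugt2b34 had the widest difference of the 10 and went its own way. Its probe (A_51_P432924) read -0.72, -0.25, -1.20, -1.25 and -0.81 in standard-diet mice, -0.63, 0.23, -0.46, -1.32 and 0.37 in high-calorie mice, and -1.21, -1.28, -1.28 and -1.14 in resveratrol mice. The resveratrol mice lay close together with an SD of 0.07, while the high-calorie mice spread with an SD of 0.69 and overlapped both other groups. Resveratrol minus high-calorie was -0.87 ± 0.29 (SE; adjusted p of 0.0944 in limma). With 1 array left out it ran from -1.11 to -0.68, with adjusted p of 0.0267 to 0.206 in limma. Only 1 of these 9 omissions passed, that of high-calorie replicate 4, the lowest of the high-calorie mice. The values also moved with the extraction day: the day 2 arrays ran from -0.81 to 0.37 and the day 1 arrays from -1.32 to -0.63. Within day 1 the resveratrol difference was -0.25, with an adjusted p of 0.583, and with the day as a block it was -0.40, with an adjusted p of 0.397.

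**Figure D3:**
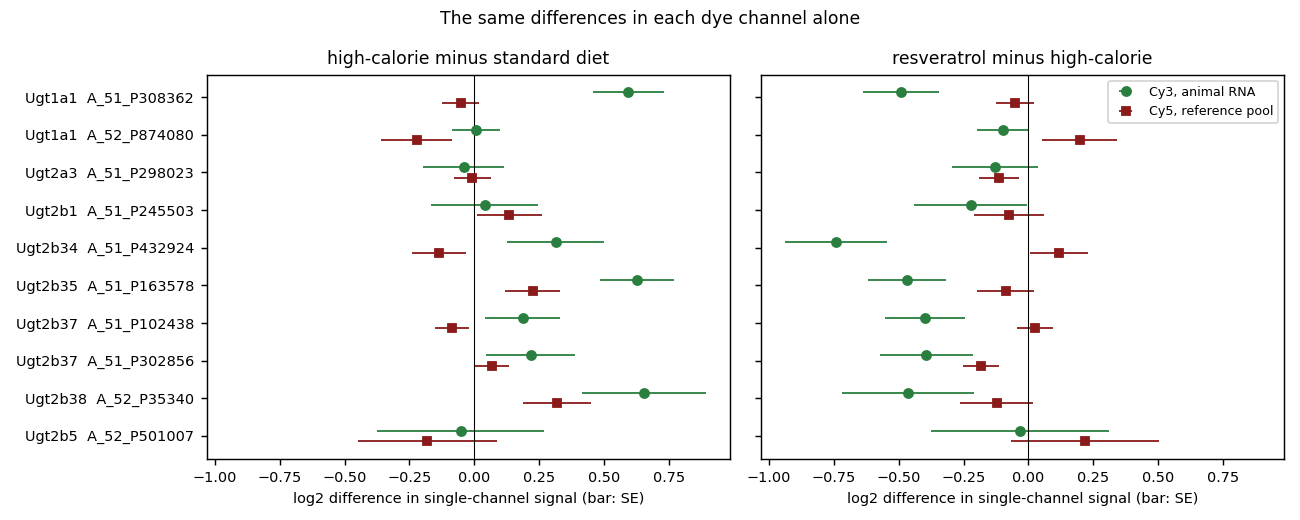
Log2 difference between diets in each dye channel alone (x axis; bars give the SE) for each probe (y axis), with green circles for Cy3, the animal's RNA, and dark red squares for Cy5, the reference pool. The dimmer Ugt1a1 probe (A_52_P874080) has a Cy3 difference of 0.01 and a Cy5 difference of -0.22 in the left panel, whereas the brighter Ugt1a1 probe and Ugt2b35 differ by 0.59 and 0.63 in Cy3.

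The third comparison set resveratrol mice against standard-diet mice. None of the 10 probes was called by limma, 0 had an unadjusted p under 0.05, and 0 had groups that did not overlap, where 0.183% of all probes were called and 2.98% did not overlap. The differences ran from -0.38 ± 0.29 (SE) for Ugt2b34 to 0.15 ± 0.13 (SE) for the brighter Ugt1a1 probe, with a median of -0.08. For Ugt2b35 the difference was 0.05 with a 95% interval of -0.25 to 0.34, which still holds changes of over 0.2 in either direction.

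Most of the probes moved together from mouse to mouse. The Ugt2b37 probe A_51_P302856 and the Ugt2b5 probe had a Pearson r of 0.984 over the 14 arrays and 0.986 after removal of the group means, and the pair of Ugt2b37 probes had 0.921. Ugt2b35 followed the Ugt2b37 probe A_51_P102438 with 0.881 and the brighter Ugt1a1 probe with 0.862. Ugt2a3 followed Ugt2b1 with 0.874. Ugt2b34 ran from -0.20 to 0.57 against the other 9 probes, and from -0.52 to 0.12 after removal of the group means. These are descriptions over arrays that share the reference pool and the normalisation, and probes of similar Ugt2b genes may bind each other's RNA. Standard-diet replicate 2 and resveratrol replicate 3, low for most of the probes, weigh on these correlations. For Ugt2b5 they lay at -0.59 and -0.70 from their group means. No correlation was computed without them.

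A pair of mice stood low for most of the probes. Standard-diet replicate 2 was the lowest of its group for 8 of the 10 probes, where it was lowest for 27.8% of all probes, and resveratrol replicate 3 was the lowest of its group for 9 of the 10, where it was lowest for 29.2%. Against the mean of the other standard-diet mice, replicate 2 stood at -1.61 for Ugt2b38, -0.74 for Ugt2b5 and for Ugt2a3, and -0.54 for Ugt2b35, but at 0.74 for Ugt2b34. Against the mean of the other resveratrol mice, replicate 3 stood at -0.95 for Ugt2b1, -0.93 for Ugt2b5, -0.67 for the brighter Ugt1a1 probe and -0.07 for Ugt2b34. With both arrays left out, 2 probes were called between high-calorie and standard diet, the brighter Ugt1a1 probe at 0.41 (adjusted p of 0.00434 in limma) and Ugt2b35 at 0.39 (adjusted p of 0.0148), while the dimmer Ugt1a1 probe was at 0.18 (adjusted p of 0.0569). Both arrays were chosen for their low values in these probes, so the adjusted p of this fit are not separate support. Without standard-diet replicate 2 alone they were 0.0701 for the brighter Ugt1a1 probe and 0.0533 for Ugt2b35 in limma.

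**Figure D4:**
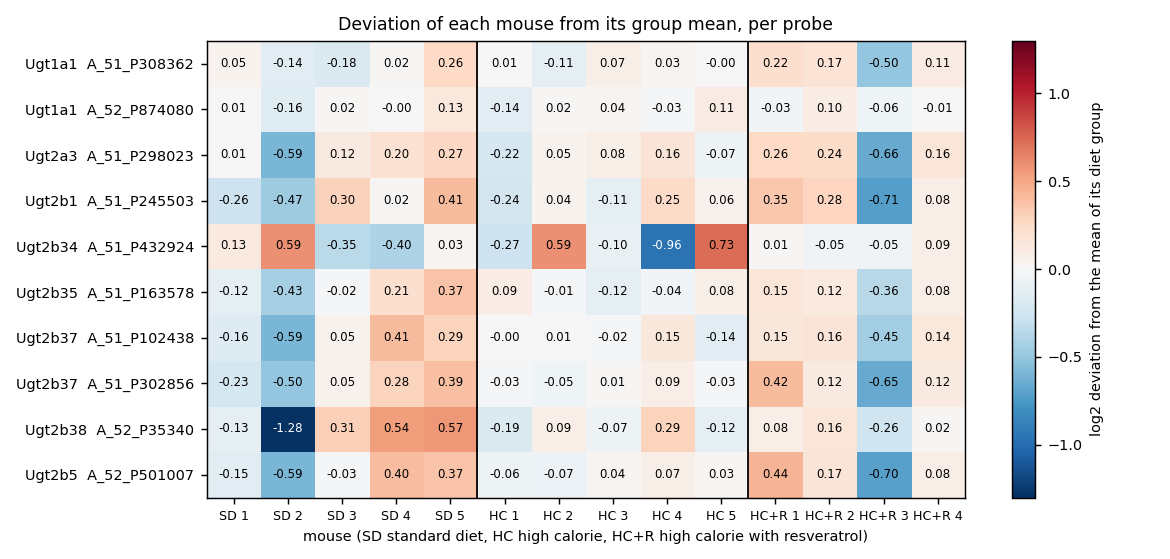
Deviation of each mouse (x axis) from the mean of its diet group, in log2 units given in each cell, for the 10 probes (y axis); blue is below and red above the group mean. Standard-diet replicate 2 (SD 2) and resveratrol replicate 3 (HC+R 3) are blue in most rows, and the Ugt2b34 row has a pattern of its own.

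The spread between mice was also compared across the groups. The SD of standard-diet mice exceeded that of high-calorie mice for 9 of the 10 probes, all but Ugt2b34, where 66.3% of all tested probes did so. The SD of resveratrol mice exceeded that of high-calorie mice for 7 of the 10, where 64.1% of all tested probes did so, a share near the background. The dimmer Ugt1a1, Ugt2b34 and Ugt2b38 probes had the smaller SD in resveratrol mice. The median SD over the 10 probes was 0.37 in standard-diet, 0.10 in high-calorie and 0.32 in resveratrol mice, against 0.09, 0.07 and 0.09 over all probes. For Ugt2b5 the SD was 0.41, 0.07 and 0.49 in that order. Single mice weigh on these SDs, medians and counts. Standard-diet replicate 2 was the lowest of its group for 8 of the 10 probes, and resveratrol replicate 3 for 9. For Ugt2b5 that resveratrol mouse read -0.72, and the others of its group read 0.07 to 0.43. No SD was computed without these mice, so a wide spread among the other resveratrol mice is not shown.

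The other genes of glucuronidation were taken from lists of their roles, with probes kept apart and the background share of calls as above. Among the other UGT genes, 2 of 9 probes rose with the high-calorie diet, Ugt3a1 by 0.65 ± 0.17 (SE) and Ugt3a2 by 0.48 ± 0.12 (SE), 0 fell, and 0 were called with resveratrol. In the supply of UDP-glucuronate, 1 of 9 probes rose, 0 fell and 0 were called with resveratrol. Ugdh, the dehydrogenase that makes UDP-glucuronate from UDP-glucose, rose by 1.05 ± 0.18 (SE; adjusted p of 0.00286 in limma), with group means of -0.24 on the standard diet, 0.81 on the high-calorie diet and 0.17 with resveratrol.

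In the branch from glucuronate to ascorbate, 1 of 7 probes rose with the high-calorie diet, that of the aldehyde reductase Akr1a1 by 0.50 ± 0.12 (SE), and 0 were called with resveratrol. In the list of beta-glucuronidase, which removes glucuronic acid, and the carboxylesterases related to its anchor in the endoplasmic reticulum, 3 of 6 probes rose and 0 fell. Gusb, beta-glucuronidase itself, rose by 0.38 ± 0.09 (SE). The carboxylesterase Ces1g rose by 0.87 ± 0.19 and 0.84 ± 0.19 (SE) on its probes A_51_P253481 and A_52_P245962, and both fell with resveratrol, by 0.80 ± 0.20 and 0.82 ± 0.20 (SE).

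Among carriers of glucuronides and bilirubin, 3 of 11 probes rose with the high-calorie diet and 2 fell. The uptake carrier Slco1a1 fell, with differences of -3.23 ± 0.23 on A_51_P103144 and -2.34 ± 0.25 on A_51_P165111 (SE), and rose with resveratrol by 2.27 ± 0.24 and 1.66 ± 0.26 (SE). Its relative Slco1a4 rose by 0.76 ± 0.10 (SE) and fell with resveratrol by 0.63 ± 0.11 (SE). In the list from haem to bilirubin, 2 of 8 probes rose, both of the glutathione transferase Gsta1, whose protein binds bilirubin (1.88 ± 0.26 on A_51_P305138 and 1.13 ± 0.29 on A_51_P305140, SE). The first of them fell with resveratrol, with a difference of -2.28 ± 0.27 (SE), and the haem oxygenase and biliverdin reductase probes were not called.

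Receptors and factors known to regulate UGT genes had 6 of 24 probes higher and 2 lower on the high-calorie diet, with a list median of -0.0024. Only the called probes with the smallest adjusted p are named, so the 2 lower ones are not. Nfe2l2, which makes the stress-response factor NRF2, rose by 0.76 ± 0.15 on A_51_P411271 and by 0.83 ± 0.18 on A_52_P396436 (SE), and fell with resveratrol by 0.73 ± 0.15 and 0.81 ± 0.19 (SE). Its group means on A_51_P411271 were -0.61, 0.15 and -0.58 in standard-diet, high-calorie and resveratrol mice. The aryl hydrocarbon receptor gene Ahr rose by 0.57 ± 0.12 (SE). Its partner Arnt rose with resveratrol by 0.27 ± 0.06 (SE). Of the other conjugating enzymes, 2 of 16 probes rose with the high-calorie diet, the thiopurine methyltransferase Tpmt by 0.50 ± 0.08 and the acetyltransferase Nat2 by 0.29 ± 0.08 (SE), and the sulfotransferase Sult1c2 fell with resveratrol by 0.48 ± 0.10 (SE).

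**Figure D5:**
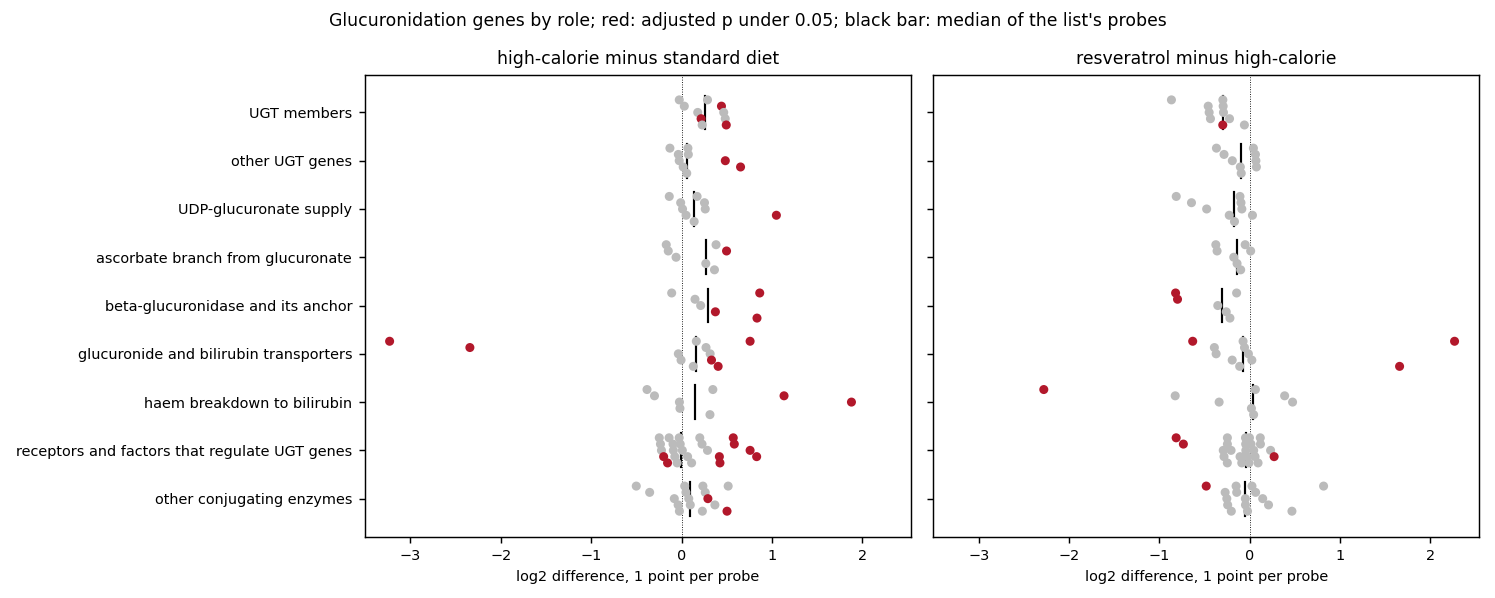
Log2 difference (x axis, 1 point per probe) for the UDP-glucuronosyltransferases and the other lists of glucuronidation genes (y axis), with red for an adjusted p under 0.05 and a black bar at the list's median. The widest points are Slco1a1, at -3.23 and -2.34 on the left and 2.27 and 1.66 on the right, and Gsta1, at 1.88 on the left and -2.28 on the right.

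Ugt2b35 was used to look for genes of like pattern, as Pearson's r over the 14 arrays, since its diet difference of 0.50 was the widest of the members as processed here. Ugt2b34 was close behind at 0.48. The order changed without standard-diet replicate 2, where Ugt2b34 was at 0.63 and Ugt2b35 at 0.39, and in Cy3 alone, where Ugt2b38 was at 0.66 and Ugt2b35 at 0.63. The probes of other genes nearest to it were Ces1g on A_51_P253481 (0.965), the interferon-induced GTPase Irgm2 (0.964), the phosphatase Ppm1a (0.963), Ces1g on A_52_P245962 (0.958) and the sialic acid esterase Siae (0.957). Ces1g and Irgm2 moved further than Ugt2b35, by 0.87 and 1.08 between high-calorie and standard diet, and Ppm1a moved less, by 0.19.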

How the data were processed

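Liver RNA was measured on 14 Agilent 2-colour whole-genome mouse arrays. Per the file headers, the authors' deposited scanner files hold the intensity of every spot and its local background in both channels, from Feature Extraction 7.5.1, with no genome build named. The authors also deposited a value table in score units, with a mean of 0 and an SD of 1 per array. It follows the log of the processed Cy3 signal, and the sources used here do not give how it was made.

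Mean signals were background-corrected with normexp (offset 50). Log2 ratios of Cy3 to Cy5 were computed here and loess-normalised array by array, the 2256 control spots having weight 0, and 576 outlier spots, none of them of a member, were left out. Spots of a probe were averaged, and 37138 of 41174 probes well above background on at least 4 arrays were kept. Files were read with data.table (version 1.17.8). Models with 3 groups were fitted in limma 3.58.1 on R 4.3.3 with Benjamini-Hochberg adjustment over all probes per comparison, and a probe was called at an adjusted p under 0.05. The fit was tested on simulated data. Symbols came from RefSeq accessions of GRCm38.p6.

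The members and lists were chosen with earlier results of these data known. A gene of the UDP-glucuronate supply list is not reported here and was left out of the counts of that list. Every member probe is named, and up to 3 called probes per list with the smallest adjusted p (2 given as values where none was called), and the 5 probes most like the member with the widest diet difference. Alternatives covered background correction, scaling, channel, filter, weights, batches, brightness, a block by replicate number and each array left out. Comparison within slide series, uncentred processed signals and the joint omission of a pair of arrays were added after seeing the data. The labels call the animals replicates, and p-values measure the spread between these samples. The number of arrays limits the precision.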

Additional observations from a re-analysis of the deposited data

Results flagged for a closer look

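In 30 groups of values (10 probes in 3 diets), an animal stood apart from the rest of its group in 4, by a test of the gap to its nearest neighbour that flags about 1 in 20 groups by chance. All 4 were resveratrol replicate 3, and the 4 probes move together, so they are not 4 separate signs. That mouse read -1.04 for the brighter Ugt1a1 probe, -0.70 for Ugt2a3, -0.49 for Ugt2b35 and -0.30 for the Ugt2b37 probe A_51_P102438, each the lowest of its group.

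The same mouse had acute-phase transcripts far above the others, on 7 probes chosen after their values were seen. Lcn2, lipocalin 2, was at 2.60 against -2.01 to -0.45 in all other mice, and Saa3, serum amyloid A3, was at 2.98 against -5.46 to -2.54. Resveratrol replicate 4 held the upper end of both of these ranges, at -0.45 and -2.54. It read -1.78 for Saa1 and -1.10 for Saa2, above every mouse but replicate 3. This replicate 4 was the lowest of its group for 0 of the 10 UGT probes, where it was lowest for 25.3% of all probes. Standard-diet replicate 2, the other mouse low in most UGT probes, was the highest of its group on 4 of the 7 probes, where it was highest for 23.4% of all probes. It read 0.92 for Hp, haptoglobin, against -0.46 to 0.12 in the other standard-diet mice, -0.20 for Hpx, hemopexin, against -0.93 to -0.51, -5.00 for Saa1 against -5.58 to -5.20 and -3.45 for Saa2 against -4.18 to -3.81. It lay within the range of its group for Lcn2 at -1.66, Saa3 at -5.22 and Orm2 at -2.12. The part of these transcripts in the low values was not tested.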

How the results depend on the processing

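Between high-calorie and standard diet, 3 member probes were called in the main setting. The count was 1 with no background subtraction, with the scanner's processed signals centred on the median, and with slide series as a block, 0 with the deposited scores, with brightness as a covariate, within extraction day 2 and within slide series 2, and 0 to 3 with an array left out. For resveratrol minus high-calorie, 1 probe was called. The count was 0 with median centring, Cy3 alone, the scores, extraction day as a block, within extraction day 1 and within slide series 1, 2 with no background subtraction, 3 with array weights and when only both groups were fitted, and 0 to 2 with an array left out. For resveratrol minus standard diet it was 0 in every setting run. Equal replicate numbers do not pair the animals (correlations of deviations from -0.19 to 0.31), and with the replicate block the counts were 3, 0 and 0. The cause of these shifts was not tested.

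Reversed signs were limited to differences that were not called. For Ugt2a3 the diet difference was -0.0048 with no background subtraction, -0.041 in Cy3 alone, -0.0068 in the scores, -0.053 with array weights, -0.094 with brightness, -0.10 within extraction day 1 and -0.12 without both low arrays, and -0.12 to 0.10 with an array left out. For Ugt2b1 it was 0.012 with no background subtraction, 0.12 with median centring, 0.041 in Cy3 alone, 0.022 in the scores and 0.029 with slide series, and -0.14 to 0.079 with an array left out. For Ugt2b5 it was -0.052 in Cy3 alone and -0.018 in the scores. For resveratrol minus high-calorie, Ugt2a3 was at 0.043 with array weights and 0.16 without both low arrays (-0.15 to 0.16 with an array left out), and Ugt2b1 at 0.013 without both low arrays (-0.34 to 0.013). For resveratrol minus standard diet, where only Ugt2b34, Ugt2b35 and the brighter Ugt1a1 probe were followed, Ugt2b34 was at 0.070 with slide series, and Ugt2b35 at -0.00085 with no background subtraction and -0.069 with brightness (-0.062 to 0.17 with an array left out).

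Over all probes, 58.7% of the calls between high-calorie and standard diet were higher, against 77.8% with median centring, 73.7% in Cy3 alone and 80.9% in the scores, and 56.3% of those between resveratrol and high-calorie were higher, against 25%, 26.5% and 37%. No scaling moved the median of all probes by over 0.1.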
